A study of Rattus norvegicus with 5 samples.

Results

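Arrays of rat lung RNA, from pools of a study of urban dust, measured 8 genes of cardiac muscle, of which Pln gave little signal. For 14 of their 18 probe sets the signal was highest in untreated lung and lowest late after instillation of the dust, and Pln, dim Ldb3 probe sets and 1 of Myh6 differed from this. The genes are Tnni3, Tnnt2, Myl7, Myh6, Actn2, Ldb3, Pln and Nppa, 8 of 4736 genes that a probe set names alone. Every probe set whose platform annotation names one of them was taken, 18 of the 8740 that are not array controls. Of these, 17 were annotated to 1 gene and 1 to both Myh6 and its neighbour Myh7. The study hybridised 5 one-colour oligonucleotide arrays, 1 per group, each with pooled total RNA of rat lungs. Intratracheal instillation of EHC-93, an urban particulate matter, gave an early pool (2, 4 and 6 h), an intermediate pool (15, 18 and 21 h) and a late pool (24, 32 and 40 h). A sham pool came from saline instillation (2, 15 and 24 h), and an untreated pool came from 3 rats without instillation. The number of rats behind the 4 instilled pools is not known here. With 1 array per group, differences between groups have no replicate error and no test, and the group, its pool and its array cannot be told apart.

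In rats and mice, sleeves of cardiac muscle cells run from the left atrium along the pulmonary veins into the lung, so RNA of whole lung normally holds cardiac transcripts. These cells contract with the sarcomere of heart muscle, in which troponin on the thin actin filaments gates the pull of the thick myosin filaments, and Z-discs anchor the thin ones. Atrial cells also secrete atrial natriuretic peptide, a hormone that lowers blood volume and pressure. The arrays measured whole lung, so the values cannot place these transcripts in the vein wall, and the genes are called cardiac muscle genes here. In such bulk RNA, fewer cells of a type and less RNA per cell cannot be told apart.

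Intensities are given after scaling the arrays to a common median. Values under a floor of 172.53, the 40th percentile of all scaled values, were set to it before taking log2. Of the 18 probe sets, 17 exceeded the floor on at least 1 array and 13 on all 5. A probe set of Ldb3 and that of Pln exceeded it on the untreated array alone and so had to be highest there, which is why counts over the 17 are given as a description. A probe set is called higher or lower in an exposed pool where its value differed at least 2-fold, in 1 direction, from the sham and from the untreated pool. The 5′ to 3′ signal ratio of the beta-actin control, a measure of RNA integrity, was 43.1% (early), 9.07% (intermediate) and 19.6% (late), against 14.7% (sham) and 24.4% (untreated).

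Promoters are shown for the 4 genes whose RefSeq window in the rat assembly GRCr8 ends at the annotated gene start, as the regulatory sequence next to the transcripts measured. Each is the 250 bases before that start. Capitals mark matches on either strand to GATAA, the core bound by GATA factors, to AAGTG, found in sites of the cardiac factor Nkx2-5, to CATTCC, the MCAT element of TEAD factors, and to TATAAA, the TATA box.
Tnni3 (chr1:78342321-78342570, plus strand): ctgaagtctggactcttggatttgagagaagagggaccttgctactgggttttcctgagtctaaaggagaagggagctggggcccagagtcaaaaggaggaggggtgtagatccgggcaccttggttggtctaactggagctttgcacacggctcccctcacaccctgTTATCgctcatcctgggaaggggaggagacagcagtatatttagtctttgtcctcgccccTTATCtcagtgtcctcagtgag
Tnnt2 (chr13:49818873-49819122, plus strand): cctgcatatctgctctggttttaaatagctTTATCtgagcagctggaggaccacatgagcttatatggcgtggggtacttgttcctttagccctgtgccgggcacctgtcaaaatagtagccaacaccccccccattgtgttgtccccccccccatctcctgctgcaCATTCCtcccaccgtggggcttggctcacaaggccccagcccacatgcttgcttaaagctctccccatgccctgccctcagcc
Actn2 (chr17:62834805-62835054, plus strand): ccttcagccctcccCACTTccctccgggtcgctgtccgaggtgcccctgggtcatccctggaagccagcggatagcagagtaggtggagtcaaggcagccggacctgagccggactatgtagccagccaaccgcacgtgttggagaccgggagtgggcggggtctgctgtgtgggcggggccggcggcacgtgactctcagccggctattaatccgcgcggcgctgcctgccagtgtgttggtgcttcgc
Nppa (chr5:163711934-163712183, plus strand): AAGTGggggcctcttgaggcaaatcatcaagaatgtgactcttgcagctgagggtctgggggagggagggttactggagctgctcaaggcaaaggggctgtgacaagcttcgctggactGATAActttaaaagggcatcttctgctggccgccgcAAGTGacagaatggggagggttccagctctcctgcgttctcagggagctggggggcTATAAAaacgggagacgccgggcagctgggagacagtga
GATAA occurred in 3 of these 4 windows and in 23.5% of all 33469 RefSeq windows cut to the same length. AAGTG occurred in 2 of 4 and in 40.6% of all, CATTCC in 1 of 4 and in 12.1%, and TATAAA in 1 of 4 and in 12.9%. Tnni3 had 2 GATAA matches, the nearer at -22 to -18 from the start, and Nppa had 1 at -131 to -127 and a TATA box at -39 to -34. No CArG box or MEF2 site was found in the 4 windows, against 1.5% and 2.96% of all windows. The windows of all genes were not limited to those ending at a gene start. The Ldb3 window, left out by that limit, had a CArG box at -52 to -43. No match overlapped that of another motif. A match describes the letters of a window only.

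Without the floor, untreated was the highest of the 5 arrays for 16 of the 18 probe sets, against 17.8% of all 8740. The late array was the lowest for 16 of 18, against 16.8% of all, and both held at once for 14 of 18, against 4.38% of all. The 2 probe sets that were highest on the sham array were of Myh6 and Ldb3. The 2 whose lowest value was not on the late array were of Ldb3 and Pln. The 18 probe sets come from 8 genes and are not independent of each other.

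**Figure D1:**
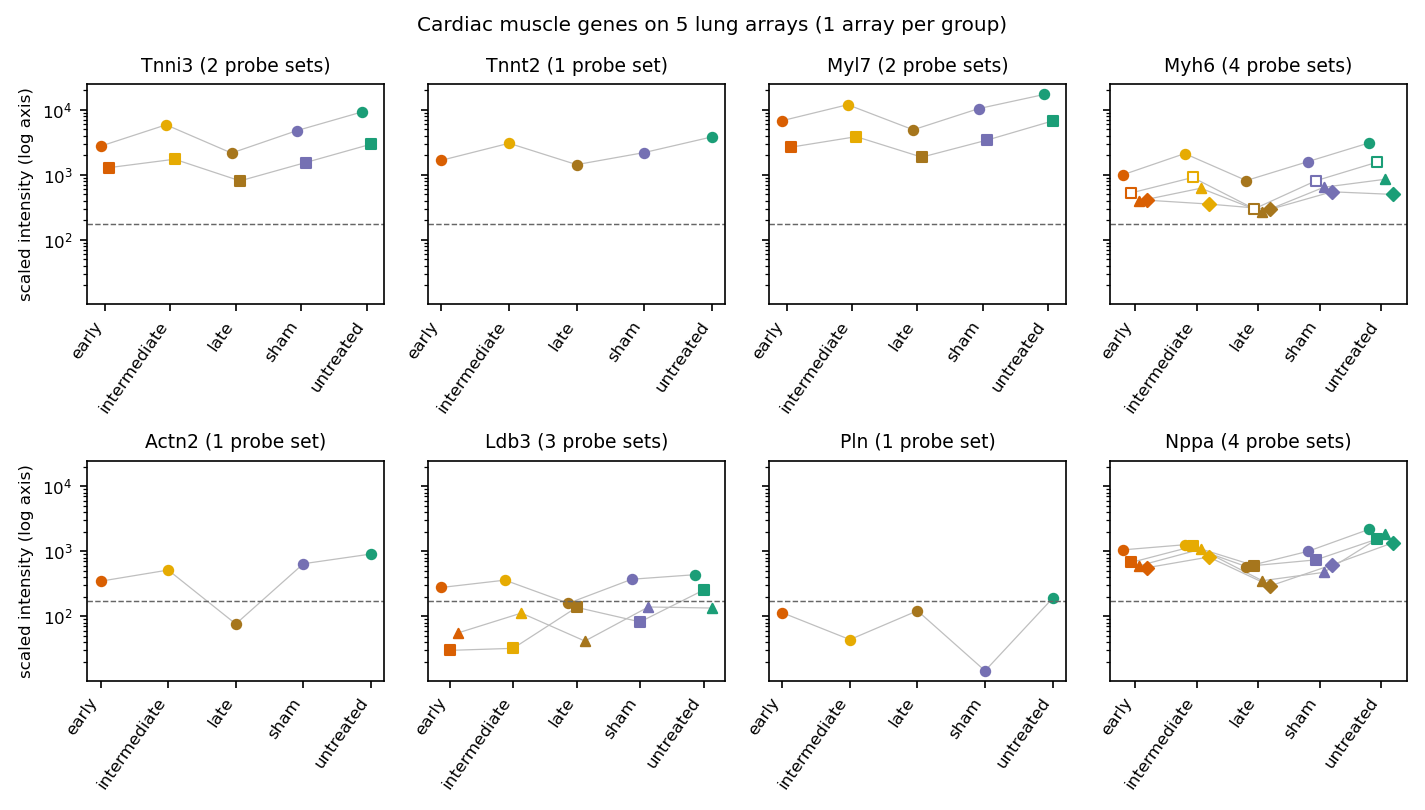
Scaled intensity (log axis) of every probe set of the 8 genes in the early, intermediate, late, sham and untreated pool. Each point is 1 probe set on 1 array, lines join the points of a probe set, and the dashed line is the floor of 172.53. In the panels of Tnni3, Tnnt2, Myl7 and Nppa, untreated is highest and late lowest for every probe set.

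Thin filament genes were well above the floor on every array. Tnni3, cardiac troponin I, the subunit that inhibits contraction, read 2762 in the early, 5891 in the intermediate and 2164 in the late pool, against 4800.5 in the sham and 9340.5 in the untreated pool (probe set M92074_g_at). The late value was 2.22-fold below sham and 4.32-fold below untreated, a call, while the early value was 1.74-fold and 3.38-fold below them. Its second probe set read 1290.0 (early), 1739 (intermediate) and 807 (late), against 1544 (sham) and 2963 (untreated). It had the same order of arrays but stayed 1.91-fold below sham in the late pool, short of the rule. Tnnt2, cardiac troponin T, which ties troponin to tropomyosin, read 1673 (early), 3062 (intermediate) and 1435 (late), against 2201 (sham) and 3834 (untreated). Its late value was 1.53-fold and 2.67-fold below the sham and untreated values, and no exposed pool was called. Untreated exceeded every other pool for both genes. The intermediate pool exceeded sham for all 3 probe sets, but for the second of Tnni3 this reversed with values as deposited (1628.9 intermediate, 1657.9 sham), after scaling to the 75th percentile and after quantile normalization.

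Thick filament genes followed the same order of pools at the common median, except for 2 dimmer probe sets of Myh6. The place of intermediate above sham depended on this scaling: it reversed for the dimmer probe set of Myl7 and the one shared by Myh6 and Myh7 under each of the 3 other scalings, and for the brighter of Myl7 after quantile normalization. Myl7, the regulatory light chain of atrial myosin, read 6826 (early), 12018 (intermediate) and 4937 (late), against 10462 (sham) and 17266 (untreated). The late pool was called lower, at 2.12-fold below sham and 3.50-fold below untreated. Its other probe set read 2663 (early), 3869 (intermediate) and 1871 (late), against 3429 (sham) and 6764 (untreated). That one was 1.83-fold and 3.62-fold below them in the late pool and was not called. Myh6, the alpha myosin heavy chain, read 1004 (early), 2124 (intermediate) and 817 (late), against 1596 (sham) and 3115 (untreated), on its brightest probe set. There the late value was 1.95-fold below sham and 3.81-fold below untreated, with no call. A dimmer Myh6 probe set read 396 (early), 621 (intermediate) and 265 (late), against 643 (sham) and 855 (untreated), and the late pool was called lower. The remaining one read 406 (early), 355 (intermediate) and 294 (late), against 548 (sham) and 499 (untreated), so here sham was highest and early exceeded intermediate. The 3 probe sets of Myh6 alone carry the name suffix of sequence families and could also read other myosin heavy chains. The probe set annotated to both Myh6 and Myh7 read 526 (early), 910.1 (intermediate) and 299 (late), against 810.3 (sham) and 1571 (untreated). It was 2.71-fold and 5.26-fold lower in the late pool than in sham and untreated, a call.

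Both Z-disc genes had a called probe set in the late pool. Actn2, the alpha-actinin that crosslinks actin filaments at the Z-disc, read 346 (early), 515 (intermediate) and 76 (late), against 644 (sham) and 908 (untreated), and the late value lay under the floor. It was at least 3.73-fold below sham and at least 5.26-fold below untreated there. Actn2 was also the only one of 17 at least 2-fold lower in the late pool than in both other exposed pools, against 1.05% of all 6188 probe sets that exceeded the floor somewhere. That call was lost with values as deposited, after scaling to the 75th percentile, after quantile normalization, with a floor at the 60th percentile and at 3-fold. Ldb3, a PDZ and LIM domain protein that binds alpha-actinin, read 277 (early), 359.6 (intermediate) and 159 (late), against 372 (sham) and 437 (untreated), again with the late value under the floor. Late was at least 2.15-fold below sham and at least 2.53-fold below untreated. Its other probe sets were dim: 1 lay under the floor on all arrays, and 1 exceeded it in the untreated pool alone, at 253.

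Pln, phospholamban, the inhibitor of the calcium pump of the sarcoplasmic reticulum, was above the floor in the untreated pool alone, at 189. With the 4 other pools at the floor, untreated was at least 1.10-fold higher, and no larger difference was measurable.

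Nppa, which encodes atrial natriuretic peptide, was read by 4 probe sets that exceeded the floor on all arrays. The brightest read 1054 (early), 1263 (intermediate) and 582 (late), against 999 (sham) and 2194 (untreated). Early was near sham here, and untreated stood above the rest. The next read 674 (early), 1190.3 (intermediate) and 602 (late), against 738 (sham) and 1552 (untreated). Another read 599 (early), 1077 (intermediate) and 352 (late), against 474 (sham) and 1859 (untreated), and here sham was below early. The last read 559 (early), 816 (intermediate) and 293 (late), against 618 (sham) and 1365 (untreated). This one was called lower in the late pool, at 2.10-fold below sham and 4.65-fold below untreated, while the other 3 lay between 1.23-fold and 1.72-fold below sham. In the early pool the 4 Nppa probe sets stood at 90.6% to 126% of sham, whereas the 9 filament probe sets stood at 57.5% to 83.6%. These ranges did not overlap, and the difference between them has no replicate check. Sham lay 2.10-fold to 3.92-fold below untreated for Nppa and at most 1.97-fold below it for the filament probe sets.

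In the early pool 0 of the 17 probe sets above the floor on at least 1 array were called higher and 0 lower, against 3.17% and 0.452% of the 6188 tested. Without the floor, 15 of 18 lay below both sham and untreated by some amount, against 36.4% of all. The distance to these pools was unequal. Of the 17, 13 were at least 2-fold below untreated, against 2.18% of all, and 0 were at least 2-fold below sham, against 1.89% of all. The median log2 difference over these 17 was -0.40 from sham and -1.20 from untreated, beside 0 over all probe sets in both cases.

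In the intermediate pool 0 of 17 were called in either direction, against 0.824% of all called higher and 0.339% lower. Without the floor 12 of 18 exceeded sham, against 56.8% of all, a share near the background. With values as deposited 9 did so, against 43.1% of all. After scaling to the 75th percentile it was 9, against 44.3%, and after quantile normalization 8, against 50.8%. The median log2 difference was 0.17 from sham and -0.55 from untreated, beside 0.10 and 0.03 over all probe sets. Over the 13 probe sets above the floor on all arrays, the median difference from sham was 0.30. It was 0.10 with values as deposited, 0.11 after scaling to the 75th percentile and 0.06 after quantile normalization. The medians over all probe sets tested, without the floor, were 0.15, -0.05, -0.03 and 0.01 in the same order of settings. The intermediate array had the lowest 5′ to 3′ ratios, 9.07% for beta-actin and 23.6% for GAPDH, and the part of RNA integrity in the members' values was not tested.

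In the late pool 7 of 17 were called lower, against 0.953% of all, and 0 higher, against 0.566%. Without the floor 16 of 18 lay below both sham and untreated, against 29.7% of all. The 7 were 1 probe set each of Tnni3, Myl7, Myh6, Actn2, Ldb3 and Nppa and the one shared by Myh6 and Myh7. Further probe sets of Tnni3, Myl7, Myh6, Ldb3 and Nppa did not pass, nor did those of Tnnt2 and Pln. The median log2 difference of the 17 was -0.94 from sham and -1.85 from untreated, beside 0.07 and 0.01 over all probe sets. Set against untreated alone, 14 were at least 2-fold lower, against 2.63% of all. Between 9 and 10 were called under the other scalings and 2 after raising the floor to the 60th percentile. The share of all probe sets called was not counted under these settings. The beta-actin ratio of this array, 19.6%, lay between those of sham and untreated.

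**Figure D2:**
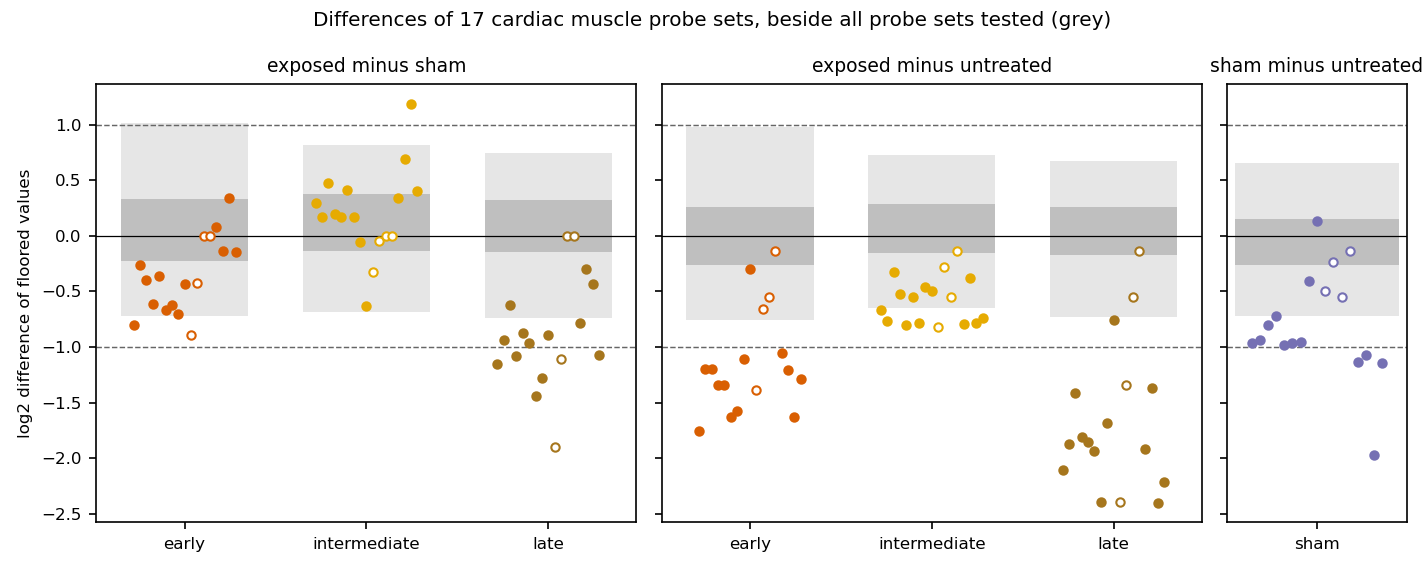
Log2 difference of floored values for the 17 cardiac muscle probe sets above the floor on at least 1 array: exposed minus sham, exposed minus untreated, and sham minus untreated. Points are probe sets (open where a value is at the floor), grey bars span percentiles of all 6188 probe sets tested, and dashed lines mark 2-fold. Late sits lowest in both exposed panels, and sham itself sits below untreated, with a median of -0.94.

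The sham pool had lower cardiac signal than the untreated pool on most probe sets, with 1 array each. Sham was below untreated for 16 of 18 probe sets without the floor, against 53.9% of all, and the median log2 difference over the 17 was -0.94, beside -0.02 over all. At least 2-fold lower were 4 of 17, all of Nppa, against 1.92% of all, and 0 were 2-fold higher, against 1.66%. The probe sets at which sham was not below untreated were of Myh6 and Ldb3.

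Among the exposed pools the cardiac muscle genes were highest in the intermediate one. It exceeded early and late for 15 of 18 probe sets without the floor, against 37.7% of all. At least 2-fold above both were 2 of 17, the brightest probe sets of Tnni3 (2.13-fold and 2.72-fold) and Myh6 (2.12-fold and 2.60-fold), against 0.436% of all. Late was below both others for 16 of 18, against 29.5% of all. Late minus early had a median log2 difference of -0.51 and late minus intermediate one of -1.12, beside 0 over all.

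The 3 exposed arrays were tested against the 2 others with limma over all 6188 probe sets. The estimate was below 0 for 17 of 17 members, against 40.7% of all, but that of Pln and of 1 Ldb3 probe set had to be, since these exceeded the floor in the untreated pool alone. Among probe sets above the floor on at least 2 arrays it was below 0 for 15 of 15 members, against 39.5% of all 5535, with a median log2 difference of -0.84, beside 0.07 over all. By limma's adjusted p, 0 of 17 and 0% of all probe sets passed 0.05, and 2 of 17 had an unadjusted p under 0.05, against 6.92% of all. These were Actn2 (log2 difference -1.29, SE 0.49, 95% interval -2.55 to -0.02, limma adjusted p = 0.714) and the Myh6 probe set that was highest in sham (-0.58, SE 0.18, limma adjusted p = 0.694). For the brighter probe sets the estimate was -1.03 with an SE of 0.53 for Tnni3 and -0.86 with an SE of 0.44 for Myl7, and both intervals included 0 (limma adjusted p = 0.817 and 0.821). The spread within the arms was wide: for Tnni3 the SD of log2 values was 0.75 over the exposed and 0.68 over the unexposed arrays. It includes the differences between phases in the exposed arm and between sham and untreated in the other. For 4 of the 17, all 3 exposed values lay below both others, namely Actn2, Ldb3 and 2 probe sets of Myh6, against 6.12% of all. An exact rank-sum test of 3 against 2 arrays cannot go below a two-sided p of 0.2. Single arrays decided the size of the median difference over the members tested, -0.81 with all arrays, which was -0.41 without untreated, -0.46 without late and -1.26 without sham. Without untreated, 13 of 15 members tested were below 0, and 2 Nppa probe sets turned to 0.088 and 0.36. Without intermediate, 9 had an unadjusted p under 0.05 and 0 an adjusted one by limma.

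Further genes of the sarcomere shared the order of the pools in part. Among 27 probe sets of a sarcomere and Z-disc list, untreated was highest for 16 and late lowest for 16, against 16.8% and 11.1% of all with the floor. In the late pool 2 of 27 were called lower, against 0.953% of all, with a median log2 difference from the mean of sham and untreated of -0.50, beside 0.05 over all. With values as deposited 6 were called, of Actc1, Csrp3, Myh7, Myl2 and Myl4, after scaling to the 75th percentile also 6, and after quantile normalization 5. No share of all probe sets was counted under these scalings. At the common median the called genes were Myl4, the essential light chain of atrial myosin, and Myl2, the regulatory light chain of ventricular myosin. Myl4 read 1399.7 (early), 2287 (intermediate) and 843 (late), against 2297 (sham) and 4766 (untreated). Its other probe set, at 2068 (early), 2453 (intermediate) and 1214 (late), against 2338 (sham) and 5157 (untreated), was not called. Myl2 read 548 (early), 612 (intermediate) and 213 (late), against 431 (sham) and 1146 (untreated). Of its 2 others, not called, 1 read 842 (early), 808 (intermediate) and 757 (late), against 948 (sham) and 844 (untreated), with no such order. Myl3, a ventricular light chain, Nppb, which encodes B-type natriuretic peptide, and the giant sarcomere protein Ttn were under the floor on all arrays. In a ventricle-enriched list, of Myl2 and Myh7, untreated was highest for 4 of 5 probe sets and late lowest for 4. Its late median was -1.27, near that of the members. In an atrium-enriched list, which includes Myl4, these were 4 and 4 of 9, with a late median of -0.17. In each list 1 probe set was called lower in the late pool, against 0.953% of all.

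In a list of muscle energy genes, 1 of 26 probe sets was called lower in the early and 2 in the late pool, against 0.452% and 0.953% of all, and 0 were called higher. The late count was 5 with values as deposited, with Fabp3, Pygm and Ckmt2 added, 4 after scaling to the 75th percentile and 4 after quantile normalization, and the early count was 2 under each of these. Here too, the share of all probe sets called was not counted for the other scalings. The late median was -0.37, beside 0.05 over all, and that of sham minus untreated -0.45, beside -0.02. Cox8b, a cytochrome c oxidase subunit of heart and brown fat, read 545 (early), 910.2 (intermediate) and 500.3 (late), against 1310.4 (sham) and 2634 (untreated), and was called in the early and late pools. Its other probe set was not called, at 521 (early), 558 (intermediate) and 671 (late), against 762 (sham) and 1077 (untreated). There the late pool was the highest of the exposed pools. Pgam2, the muscle phosphoglycerate mutase, read 435 (early), 792 (intermediate) and 388 (late), against 859 (sham) and 1248 (untreated), and was called in the late pool.

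Calcium handling, peptide signalling and regulatory genes had few or no calls. In the calcium handling list 1 of 27 probe sets was called lower in each exposed pool, against 0.452% (early), 0.339% (intermediate) and 0.953% (late) of all, that of S100a1, a calcium-binding protein of heart muscle, at 210.1 (early), 107 (intermediate) and 136 (late), against 489 (sham) and 547 (untreated). Its 3 other probe sets were not called, among them one of the same source sequence at 659 (early), 741 (intermediate) and 769 (late), against 1077 (sham) and 1509 (untreated). Atp2a2 had no call, but 1 probe set had the order of most members, at 3327 (early), 5215 (intermediate) and 3109 (late), against 4088 (sham) and 5799 (untreated). Its brightest did not, at 4978 (early), 6493 (intermediate) and 4967 (late), against 4435 (sham) and 4358 (untreated), and its others lay nearer the floor. Ryr2, the calcium release channel of heart muscle, was under the floor on all arrays. None of 11 probe sets of the natriuretic peptide system was called, with the brightest of the natriuretic receptor Npr1 at 1942 (early), 2604 (intermediate) and 2434 (late), against 2439.8 (sham) and 2484 (untreated). None of 7 of cardiac transcription factors was called, with Nkx2-5 at 335 (early), 328 (intermediate) and 428 (late), against 203 (sham) and 481 (untreated). None of 11 of cardiac channels and junctions was called, with the gap junction gene Gja5 at 4230.0 (early), 5670.3 (intermediate) and 4360.0 (late), against 3309 (sham) and 2812 (untreated). The late medians of these 4 lists lay between 0 and 0.07, and many of their values were at or near the floor.

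**Figure D3:**
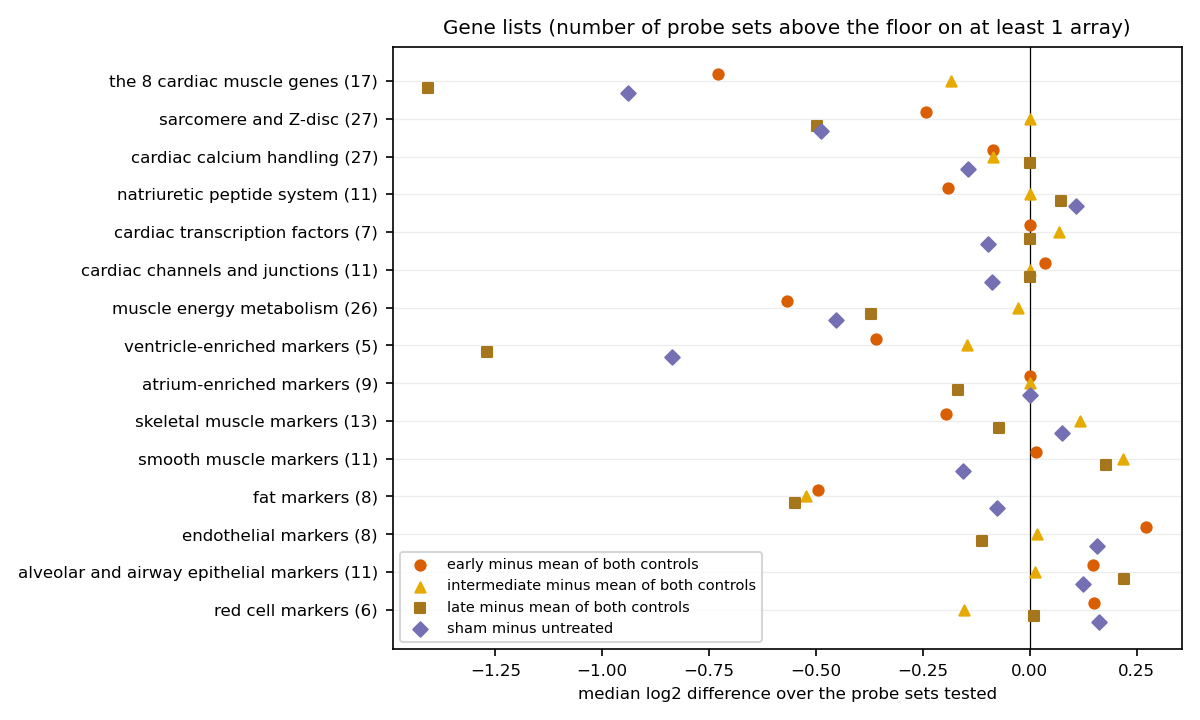
Median log2 difference of each gene list: early, intermediate and late minus the mean of sham and untreated, and sham minus untreated. Numbers in brackets count the probe sets above the floor on at least 1 array. The 8 genes have the lowest late median, -1.41, and the ventricle-enriched list is next at -1.27 over 5 probe sets. The atrium-enriched list stands at -0.17, and the skeletal muscle, smooth muscle and epithelial lists lie between -0.07 and 0.22 in the late pool.

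Markers of other cells in the lung were set beside these values as summed scaled intensity. The 17 cardiac probe sets summed to 21201 (early), 35886 (intermediate) and 15212 (late), against 29974 (sham) and 54962 (untreated). Skeletal muscle markers summed to 4031 (early), 5179 (intermediate) and 4429 (late), against 4649.9 (sham) and 4559 (untreated), with 0 of 13 called and Tnni2, Myh2 and Myh4 under the floor on all arrays. Most skeletal probe sets lay at or near the floor, and the part of skeletal muscle in the cardiac values was not tested. Smooth muscle markers summed to 35126 (early), 35954 (intermediate) and 32940.3 (late), against 28545 (sham) and 29340.5 (untreated), and 2 of 11 were called, both of the actin gene Acta2 and higher in the early pool, as were 3.17% of all. The brightest Acta2 probe set was not called, at 10249 (early), against 10115 (sham) and 10170 (untreated). Alveolar and airway epithelial markers summed to 271860.0 (early), 297102 (intermediate) and 307495 (late), against 270886 (sham) and 247113 (untreated), with 0 of 11 called. Endothelial markers summed to 5308 (early), 3768 (intermediate) and 3197 (late), against 3897 (sham) and 4156 (untreated), and 1 of 8, the endothelin gene Edn1, was called higher in the early pool. The endothelial sum was lowest in the late pool too, and none of these 3 sums was highest in the untreated pool. Red cell markers summed to 14978 (early), 6941 (intermediate) and 9065 (late), against 13329 (sham) and 6264 (untreated), with 0 of 6 called.

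Fat markers had their highest sum in the untreated and their lowest in the late pool as well, at 6843 (early), 6874 (intermediate) and 6072 (late), against 7804 (sham) and 8888 (untreated). Of 8 probe sets tested, 1 was called lower in the early, 1 in the intermediate and 2 in the late pool, against 0.452%, 0.339% and 0.953% of all. Ucp1, the uncoupling protein of brown fat, read 283 (early), 251 (intermediate) and 139.5 (late), against 566 (sham) and 537 (untreated), the late value under the floor. Cfd, the adipocyte protease adipsin, read 422 (early), 605 (intermediate) and 381 (late), against 943 (sham) and 1271 (untreated). Cfd was called in the early and late pools and 1 of 2 probe sets of Ucp1 in the intermediate and late pools. Fabp4, the fatty acid binding protein of adipocytes, read 723 (early), 519 (intermediate) and 545 (late), against 902 (sham) and 1839.7 (untreated), without a call. Lipe, the hormone-sensitive lipase, read 1863 (early), 1954 (intermediate) and 1684 (late), against 1636 (sham) and 1682 (untreated), on its brighter probe set, and Lep, leptin, read 1924 (early), 2231 (intermediate) and 2090.0 (late), against 2261 (sham) and 1846 (untreated), on its brightest, so that neither was lowest late and highest untreated. The other probe sets of Lep were under the floor on all arrays. The fat markers Plin1 and Pck1 were under the floor on all arrays, and the part of adipose tissue in the cardiac values was not tested.

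Genes nearest to the members in pattern were found by the root mean square distance of log2 profiles over the 5 arrays, each centred on its own mean, from the mean profile of 1 probe set per member. The 8 nearest of 3176 genes were Csrp3 (distance 0.06), Myh7 (0.09), Fabp3 (0.12), Actc1 (0.13), G0s2 (0.14), Calml4 (0.15), Grk4 (0.15) and Mgll (0.16), against a median of 0.61 over all. Of the 8, 4 stood on the cardiac and muscle lists, as did 55 of all 3176 (1.73%), though genes of these lists were named with earlier results known: Csrp3, a muscle LIM protein, Myh7, the beta myosin heavy chain, Fabp3, the fatty acid binding protein of heart, and Actc1, cardiac actin. The Myh7 probe set carries the suffix of sequence families and shares its source sequence with the one annotated to both Myh6 and Myh7. It could also read Myh6, so its nearness is not independent of the members. Actc1 read 6428 (early), 12889 (intermediate) and 5085 (late), against 9361 (sham) and 17201 (untreated). Csrp3 read 566 (early), 861 (intermediate) and 441 (late), against 831 (sham) and 1231 (untreated). G0s2, an inhibitor of fat breakdown, read 588 (early), 1214 (intermediate) and 471 (late), against 992 (sham) and 1431 (untreated). With 5 arrays many genes can take a similar shape, and the distance is a description.

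**Figure D4:**
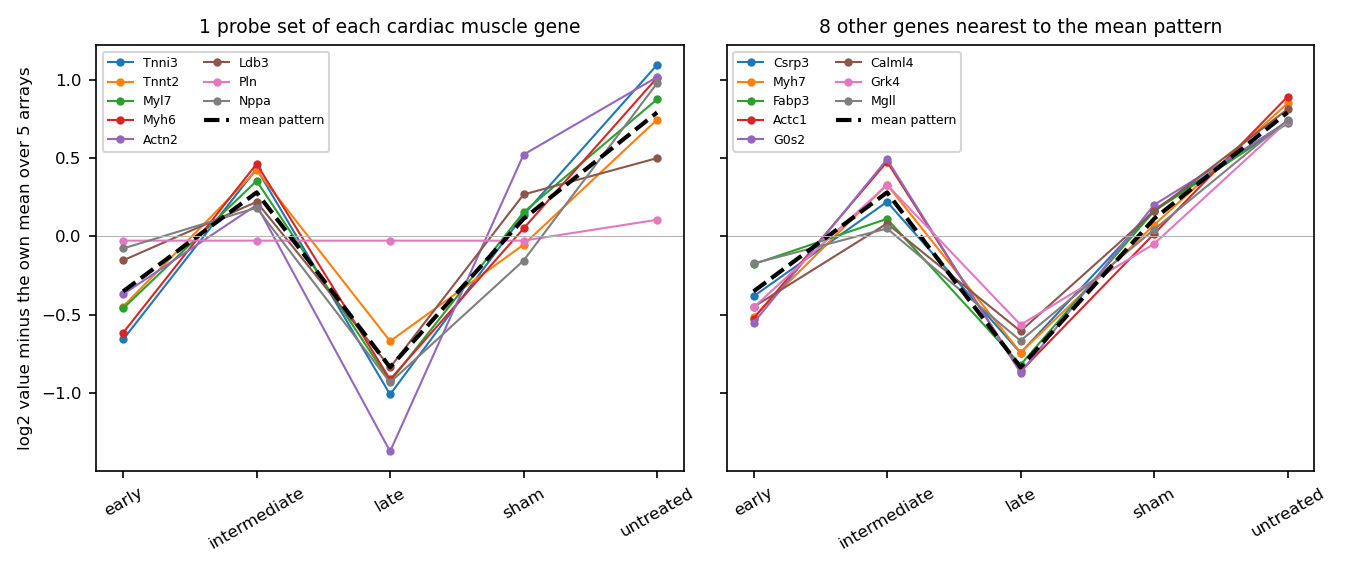
Log2 values minus their own mean over the 5 arrays for 1 probe set of each of the 8 cardiac muscle genes and for the 8 other genes nearest to their mean pattern (dashed). Lines join the arrays of a gene. The mean pattern stands at -0.35 (early), 0.28 (intermediate) and -0.84 (late), against 0.11 (sham) and 0.79 (untreated), and Pln, at the floor on 4 arrays, is nearly flat.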

How the data were processed

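Lung RNA pools of rats were measured on 5 one-colour oligonucleotide arrays, grouped by the array titles in the labels. The authors deposited 1 linear intensity per probe set and array. The deposited values themselves show a scaling between arrays: trimmed by 2% at both ends, their means ran from 1001.38 to 1001.63. The algorithm, background correction and detection calls are not given in the sources used. After leaving out 59 control probe sets, genes were named through GEO's platform annotation, in which 7006 probe sets had 1 symbol, 308 several and 1426 none. All 18 member probe sets had gene identifiers found in a RefSeq gene table.

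From the deposited intensity, values were scaled to equal medians with factors from 0.931 to 1.07, floored at the 40th percentile and put on a log2 scale. Folds against floored values are bounds. The fold rule has no test. Exposure was tested with limma 3.58.1 in R 4.3.3 (3 against 2 arrays, Benjamini-Hochberg adjustment over 6188 probe sets above the floor on at least 1 array, threshold 0.05). The number of arrays limits the precision, and its p-values cover the spread between arrays of pools, not between rats. That spread includes the differences between the dust phases and between sham and untreated, so it is not noise between like arrays. The steps were tested on simulated arrays with equal noise and the same shift in all exposed arrays, unlike the differing pools here. All probe sets of the 8 genes are accounted for. From 14 gene lists, up to 4 called genes per list were eligible to be named, by the size of the smaller difference from both controls, or, with none called, up to 3 with the highest mean. A few list genes without a call were named as well. Likeness used probe sets above the floor on at least 3 arrays. Members, lists and rules were chosen with earlier results of these data known. Alternatives were scaling, floor, fold threshold, filter, 1 probe set per gene and leaving out arrays.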

Additional observations from a re-analysis of the deposited data

How the results depend on the processing

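For the limma fit 0 members passed in any of the 13 alternatives, so the count without each array in turn ranged from 0 to 0. Of 205 member estimates under these alternatives 203 kept their sign and their side of the threshold; leaving out single arrays moved 2 Nppa probe sets over -0.98 to 0.088 and -1.61 to 0.36, with the positive values without the untreated array; the cause was not tested. The control arrays were also used singly, a choice made after seeing the data. Early lower members then ranged from 0 (sham alone) to 13 (untreated alone), against 1.89% and 2.18% of all. Intermediate higher ones ranged from 0 (untreated alone) to 1 (sham alone, Nppa), against 2.2% and 2.38%. Late lower ones ranged from 7 (sham alone) to 14 (untreated alone), against 2.34% and 2.63%. For the other scalings, floors and fold thresholds, and for 1 probe set per gene, the share of all probe sets past the fold rule was not counted. The counts under them are a description. With values as deposited, early lower members numbered 1 (Actn2), and the late members lower than both other phases 0; in the cardiac and muscle lists 4 were lower on the early and 12 on the late array, against 2 and 5. Scaling to the 75th percentile gave 1, 0, 4 and 11, and quantile normalization gave 1 and 0 for the members and 10 for the late lists. With the floor at the 20th percentile, 1 member was lower on the early array (Ldb3), 1 lower on the intermediate than on both other phases and 1 higher on the late; the lists had 2 higher and 4 lower in the early, 2 higher and 4 lower in the intermediate, and 3 higher and 13 lower in the late pool. With the floor at the 60th percentile, late lower members numbered 2 and late against both other phases 0, and the lists had 1 lower in the early, 0 in the intermediate and 2 in the late pool. At 1.5-fold, 6 members were lower on the early and 13 on the late array, 11 were lower on sham than on untreated, 8 highest on the intermediate and 7 lowest on the late among the phases; the lists had 2 higher and 12 lower in the early, 1 higher in the intermediate and 19 lower in the late pool. At 3-fold these were 0, except for 1 late lower member (Actn2) and 1 lower on sham (Nppa), and the lists had 0. With 1 probe set per gene, which leaves fewer to count, 4 members were lower on the late array and 1 on sham, and the lists had 1 lower in the early, 0 in the intermediate and 2 in the late pool. Setting intermediate against sham probe set by probe set under each scaling, and counting each list by scaling, were also chosen after seeing the data. No paired analysis was possible because each group has 1 array. Signal near the floor limits Pln and Ldb3.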
